A study of Oryctolagus cuniculus with 6 samples.

Results

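The measurements described here are stain and thickness readings of tracheal sections from 3 groups. They came from 1 sheet of the deposited workbook, from which every value under the titles PAS, AC-Tub, CK14 and thickness was taken for the groups named LA@PA-TA@C, Blank and Sham. This gave 72 values, 6 per group for each of the 4 titled measurements, of 90 in the sheet; the other 18 stand in a block without a title. The series also holds 6 sequenced RNA libraries of wild type rabbit (Oryctolagus cuniculus) trachea collected on day 14, 3 with hydrogel and 3 blank. Per the labels, the hydrogel group had an injured epithelium and received LA@PA-TA@C, and the blank group had an epithelial deficiency with no material named. Sham appears in the sheet without a description and has no library. The sheet names neither the species nor the collection day, and it does not say whether a value is a section, a field or an animal. The p-values below therefore measure the spread among the 6 deposited values of a group, which may be technical.

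The lining of the conducting airway holds ciliated cells that move mucus, secretory cells that make it, and basal cells that divide and give rise to the others after injury. Periodic acid-Schiff (PAS) stains carbohydrate-rich material such as the mucins of goblet cells. Acetylated tubulin (AC-Tub) is a modified tubulin that is abundant in the stable microtubules of cilia. Keratin 14 (CK14) is an intermediate filament protein of basal cells, and in mouse airways it is known to appear in more basal cells after injury. The file does not say which layer the thickness refers to. The stains are the readings themselves, so they check no cell type label.

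All 3 epithelial stains were higher in hydrogel than in blank, and thickness was lower, with no overlap between the 6 hydrogel and the 6 blank values in any of the 4 measurements. Relative to sham, CK14 was 31.8% higher in hydrogel, PAS was 22.6% lower, and the differences in AC-Tub and thickness did not pass the test. The PAS call was close to the threshold and was kept in 4 of 12 repeats that left out 1 value. It ended with medians and with Holm adjustment, but not with ranks. The CK14 values of hydrogel and sham did not overlap, so leaving out 1 value could not end that call. Blank stood far from sham throughout, at 9.68% of the sham mean for PAS, 4.68% for AC-Tub and 6.01% for CK14, and at 266% for thickness. A sheet of days, described near the end, also differs between blank and the other groups. If collection days differed too, time and treatment cannot be told apart in the contrasts with blank. Taking the 3 groups together, the difference was larger than the spread within groups for PAS, AC-Tub, CK14 and thickness (permutation test of F with 100000 resamples, adjusted p between 2.5e-05 and 7e-05 over 5 measurements).

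**Figure D1:**
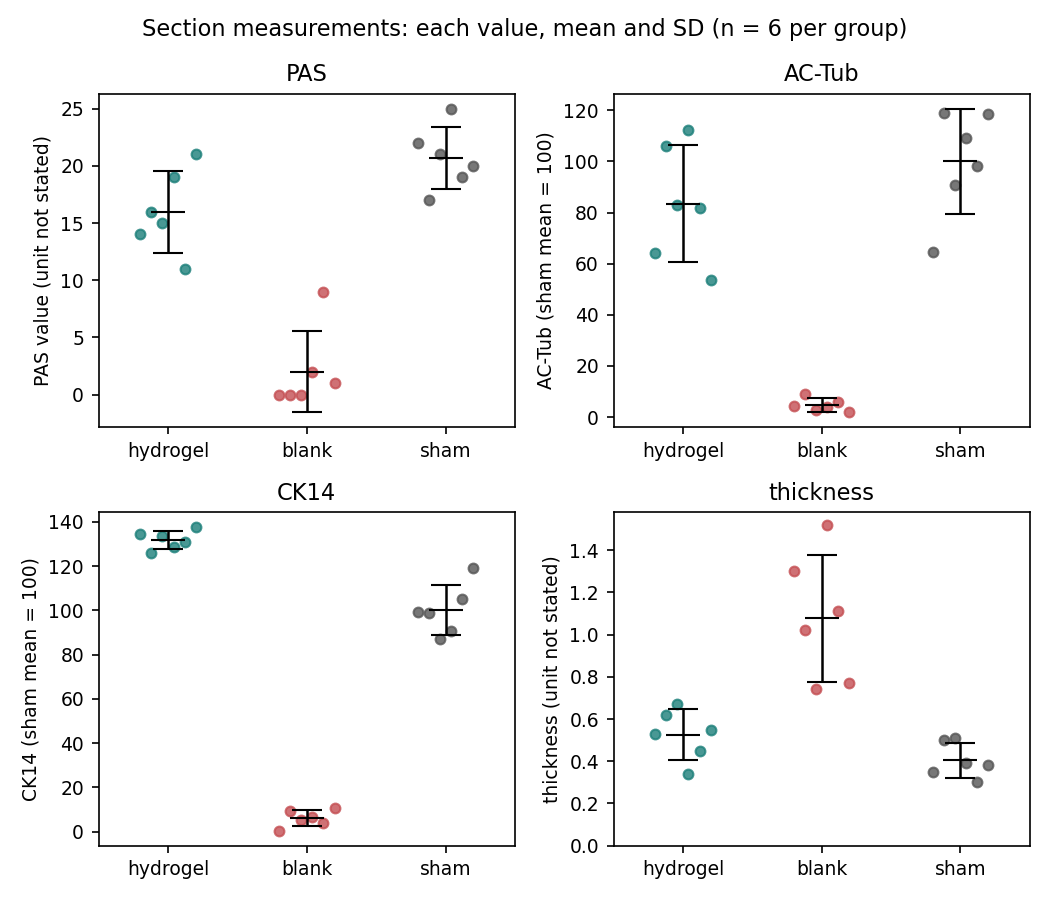
The plot of section values shows each of the 6 values per group as a circle, with the mean and SD in black, for PAS, AC-Tub, CK14 and thickness in hydrogel, blank and sham. The vertical axes give the deposited scale, on which AC-Tub and CK14 have a sham mean of 100 and the units of PAS and thickness are not stated. Hydrogel values do not overlap with blank in any panel, and in the CK14 panel every hydrogel value lies above every sham value.

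For PAS, the mucin-type reading, the 6 hydrogel values were 14, 16, 15, 19, 11 and 21. The 6 blank values were 0, 0, 0, 2, 9 and 1, and the 6 sham values were 22, 17, 21, 25, 19 and 20. Every hydrogel value lay above the highest blank value, and 3 of the 6 blank values were 0. The PAS values are whole numbers, and the sheet gives no unit for them.

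PAS averaged 16 ± 3.58 in hydrogel, 2 ± 3.52 in blank and 20.7 ± 2.73 in sham (SD, n = 6 each). Hydrogel exceeded blank by 14 ± 2.05 (SE; exact permutation test, adjusted p = 0.00295). Its unadjusted p of 0.00216 is the smallest that the 924 ways of splitting 6 against 6 values can give in this exact permutation test. Blank minus sham was -18.7 ± 1.82 (SE; exact permutation test, adjusted p = 0.00295). Adjustment was by Benjamini-Hochberg over 15 comparisons, 3 pairs of groups in 5 measurements, with a threshold of 0.05.

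The hydrogel and sham ranges of PAS overlapped, and 4 of the 6 hydrogel values lay below the lowest sham value. Hydrogel minus sham was -4.67 ± 1.84 (SE; 95% interval -9 to -0.5; exact permutation test, adjusted p = 0.0425). This call was close to the threshold. It held in 4 of 12 repeats that each left out 1 value of the pair, and ended when the hydrogel value 14, 16, 15 or 11 or the sham value 22, 21, 25 or 20 was left out. The adjusted p then ran up to 0.0835, while over all 12 repeats the difference stayed between -5.67 and -3.67 (exact permutation tests). The call also ended with exact permutation of the difference in medians (adjusted p = 0.0524) and with Holm adjustment of the permutation test of means (adjusted p = 0.11). It was kept, still close to the threshold, by the exact rank-sum test (adjusted p = 0.045).

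For AC-Tub, the cilium reading, the 6 sham values average exactly 100 to 3 decimals, so values are read here as percent of the sham mean. Hydrogel stood at 64.1, 106, 83.1, 112, 81.6 and 53.8. Blank stood at 4.42, 9.13, 2.71, 3.76, 6.06 and 1.98, and sham at 64.5, 119, 90.8, 109, 98.1 and 119. The lowest hydrogel value was above every blank value, and the hydrogel values spread over much of the sham range.

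AC-Tub averaged 83.5 ± 22.8 in hydrogel, 4.68 ± 2.60 in blank and 100 ± 20.7 in sham (SD, n = 6 each). The hydrogel mean was 17.9 times the blank mean, a difference of 78.8 ± 9.38 (SE; exact permutation test, adjusted p = 0.00295). Hydrogel minus sham was -16.5 ± 12.6 (SE; 95% interval -45.2 to 12.6; exact permutation test, adjusted p = 0.219). That interval includes no difference and also a deficit of 45.2% of the sham mean. Of the 36 pairings of 1 hydrogel with 1 sham value, hydrogel was higher in 9, and 2 of the 6 hydrogel values lay below every sham value.

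For CK14, the basal-cell keratin, the sham values also average 100 to 3 decimals. Hydrogel stood at 134.6, 126, 134, 128, 131 and 138. Blank stood at 0.477, 9.10, 5.18, 6.64, 4.04 and 10.6, and sham at 99.2, 98.9, 87.2, 90.5, 105 and 119. Here the hydrogel group did not lie between the others: its lowest value was above the highest sham value.

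CK14 averaged 131.8 ± 4.29 in hydrogel, 6.01 ± 3.64 in blank and 100 ± 11.3 in sham (SD, n = 6 each). Hydrogel exceeded blank by 125.8 ± 2.30 (SE) and sham by 31.8 ± 4.94 (SE; 95% interval 20.7 to 42.2), both with an adjusted p of 0.00295 in the exact permutation test. In each of the 12 repeats that left out 1 value, the excess over sham lay between 29.3 and 35.6. Its call was kept in all 12, an outcome fixed by the lack of overlap between the groups. The hydrogel values were close together, with an SD of 3.26% of their mean for CK14 against 27.3% for AC-Tub and 22.4% for PAS in the same group. The spread among the sham values was 11.3% of their mean for CK14, 20.7% for AC-Tub and 13.2% for PAS. Differences in spread were not tested.

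Thickness ran the other way. The 6 hydrogel values were 0.53, 0.62, 0.67, 0.34, 0.45 and 0.55. The 6 blank values were 1.3, 1.02, 0.74, 1.52, 1.11 and 0.77, and the 6 sham values were 0.35, 0.5, 0.51, 0.39, 0.3 and 0.38, in a unit the sheet does not state. Every blank value was above every hydrogel value, while the hydrogel and sham ranges overlapped.

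Thickness averaged 0.527 ± 0.119 in hydrogel, 1.08 ± 0.303 in blank and 0.405 ± 0.0836 in sham (SD, n = 6 each). The hydrogel mean was 0.489 times the blank mean, a difference of -0.55 ± 0.133 (SE; exact permutation test, adjusted p = 0.00295). Blank exceeded sham by 0.672 ± 0.128 (SE; exact permutation test, adjusted p = 0.00295). Hydrogel minus sham was 0.122 ± 0.0593 (SE; 95% interval -0.0133 to 0.257; exact permutation test, adjusted p = 0.0835). Hydrogel was higher in 29 of the 36 pairings, and 4 of the 6 hydrogel values exceeded every sham value. Without the lowest hydrogel value, 0.34, the difference became 0.159 and passed (exact permutation test, adjusted p = 0.0225).

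**Figure D2:**
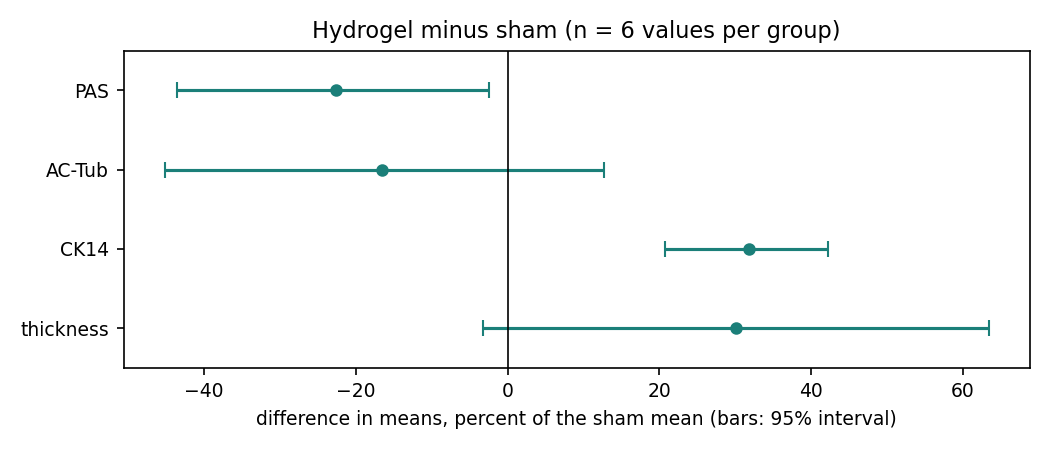
The plot of hydrogel minus sham gives, for each measurement, the difference in means as a percent of the sham mean (circle) with its 95% interval from the exact permutation test (bar), with 6 values per group. PAS (-22.6%) and CK14 (31.8%) have intervals that leave out 0, while those of AC-Tub (-16.5%) and thickness (30.0%) include it.

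On a scale where the blank mean is 0% and the sham mean is 100%, hydrogel stood at 75% for PAS, 82.7% for AC-Tub, 81.9% for thickness and 133.9% for CK14. Leaving out 1 value of any group moved these positions to between 69.6% and 80.4% for PAS, 76.7% and 88.9% for AC-Tub, 76.3% and 86.2% for thickness, and 130.3% and 139.5% for CK14. These ranges show the pull of single values. They are not confidence intervals, which were not computed for positions and could be wider. Single hydrogel values ran past the sham mean in 1 of 6 cases for PAS, 2 of 6 for AC-Tub, 1 of 6 for thickness and 6 of 6 for CK14. The positions of different measurements were not tested against each other, because the rows carry no name that would show whether values in different blocks came from the same tissue.

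**Figure D3:**
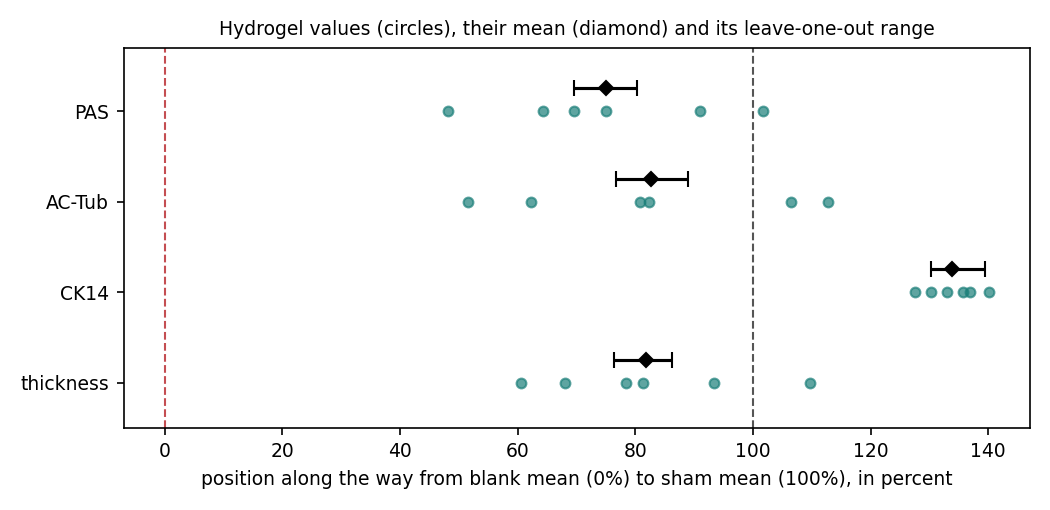
The plot of position shows the 6 hydrogel values of each measurement as circles on a scale from the blank mean (0%, left dashed line) to the sham mean (100%, right dashed line), with their mean as a diamond and its range over leaving out 1 value as a bar. The bar is not a confidence interval. PAS, AC-Tub and thickness lie around 75% to 82.7%, and CK14 lies at 133.9%, beyond sham.

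The block without a title gave 13.3, 20.9, 20.9, 29.1, 16.0 and 31.8 in hydrogel, against 36.8, 75.1, 68.7, 44.3, 82.7 and 76.7 in blank. Its sham values were 10.3, 7.47, 7.08, 14.1, 11.4 and 13.3. What it measures is not given in the sources used here. Its groups were ordered like thickness, with means of 22.0 ± 7.22 in hydrogel, 64.0 ± 18.9 in blank and 10.6 ± 2.93 in sham (SD, n = 6 each). Hydrogel minus blank was -42.0 ± 8.25 (SE; exact permutation test, adjusted p = 0.00295), and hydrogel minus sham was 11.4 ± 3.18 (SE; exact permutation test, adjusted p = 0.00812).

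The RNA libraries offer another reading of the features that AC-Tub and PAS mark, for hydrogel and blank alone. The authors' deposited tables list 14 genes for cilium assembly, the building of the organelle in which acetylated tubulin lies, and 8 genes for mucin type O-glycan biosynthesis, which attaches the first sugars to mucins. Both lists were chosen by the authors from genes that differed between these libraries, so their direction and size are not independent evidence, and no test was made. Library totals were 22309570, 23095010 and 16827419 counts in hydrogel and 23390531, 21081843 and 17292087 in blank. In bulk tissue, fewer cells of a type and less RNA per cell cannot be told apart.

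The geometric mean level of the cilium assembly genes was 44.5, 107 and 104.7 CPM (counts scaled to library size) in hydrogel replicates 1, 2 and 3, against 17.0, 9.81 and 7.85 CPM in blank replicates 1, 2 and 3. That is a ratio of 7.26 between geometric means over libraries and of 7.41 between arithmetic means, and the first became 4.34 by the median gene. The AC-Tub ratio of arithmetic means was 17.9. The mucin type O-glycan genes stood at 42.8, 52.9 and 47.3 CPM in hydrogel, against 8.64, 7.49 and 1.08 CPM in blank. Their ratio was 11.5 between geometric means over libraries, or 5.91 without blank replicate 3, the lowest library. Between arithmetic means it was 8.31. The PAS ratio, also of arithmetic means, was 8. The nearness of these numbers carries no meaning, as the genes were listed because they differed between these libraries. That PAS ratio divides by a blank mean of 2, which a single blank value of 9 raised above the blank median of 0.5. It was not recomputed without that value, which would make it larger. The 3 hydrogel libraries lay above the 3 blank libraries for both lists. The sheet does not tie sections to libraries, so stain and RNA levels were not correlated. Stain readings and CPM are unlike measures, and the day of the sections is not stated, so the sizes of their ratios cannot be compared.

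**Figure D4:**
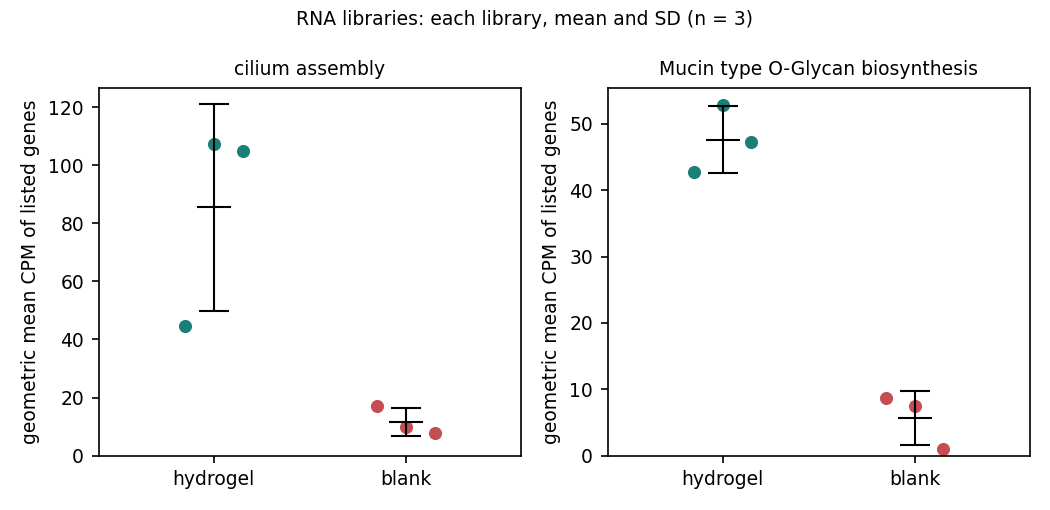
The plot of RNA levels shows the geometric mean CPM of the 14 genes listed for cilium assembly and of the 8 listed for mucin type O-glycan biosynthesis, with a circle for each of 3 hydrogel and 3 blank libraries and the mean and SD in black. Hydrogel libraries lie at 44.5 CPM or above for the first list and at 42.8 CPM or above for the second, and no blank library exceeds 17.0 CPM.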

How the data were processed

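The section values were read from 1 deposited sheet, which was the same in all 6 workbooks. How the authors stained, imaged and measured the sections is not given in the sources used here. The authors' 15 deposited mean differences equalled those of the values within a relative gap of 0.000274. AC-Tub and CK14 were deposited relative to a sham mean of 100, so their sham means carry no level of their own. The deposited read counts cover 16815 genes; per the submitters' processing notes, HISAT2 2.2.1 and featureCounts 2.0.2 were among the tools, and the rabbit build is not given in the sources used here.

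Differences in means were tested over all 924 splits of 6 against 6 values (two-sided exact permutation test), and intervals come from inverting that test under a shift, so they assume equal spread in both groups. The 3-group test permuted F with 100000 resamples. Values of a group were taken as replicates. CPM used library totals and 0.5 added to each count. Functions were tested on simulated data. Python 3.11.15, numpy 2.4.6, scipy 1.17.1 and matplotlib 3.10.9 were used. Alternatives were medians, log2 values, ranks, Holm adjustment and leaving out each value. No gene is named, by rule, and every titled measurement is described. The measurements and lists were chosen with earlier results of these data known, and the RNA levels were added after seeing the data.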

Additional observations from a re-analysis of the deposited data

Results flagged for a closer look

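One value stood far from the rest of its group. The highest blank value of PAS was 9, where the other 5 blank values were 0, 0, 0, 1 and 2; the gap to its neighbour was 77.8% of the group's range. Without it, hydrogel minus blank for PAS was 15.4 in place of 14 and stayed past the threshold (exact permutation test, adjusted p = 0.00295), and hydrogel stood at 76.7% of the way from blank to sham. That call could not end, because the PAS values of hydrogel and blank did not overlap. Of the 15 groups of values checked in this way, this was the single one found. Chance alone would flag about 1 in 20 groups of normally distributed values, so a single flag among 15 is near that share. That rate may not hold here, because 3 of the 6 blank values were 0.

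A sheet outside these comparisons lists days with an entry of 0 or 1 for 6 rows in each of the same 3 groups. The blank group had 4 entries of 1, on days 8, 8, 11 and 17, and 2 entries of 0 on day 21. All 6 hydrogel and all 6 sham entries were 0 on day 21. The meaning of 0 and 1 is not stated. By their names, this sheet and the section sheet belong to panels of the same figure. No row name ties an entry to a section value, so whether they share animals is not known. If blank tissue was collected earlier than that of the other groups, time and treatment cannot be told apart in the section values.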

How the results depend on the processing

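Over the 5 measurements, all calls of hydrogel against blank, of blank against sham and among the 3 groups were kept under every alternative run, as were the calls of hydrogel against sham for CK14 and the block without a title. Hydrogel and blank, blank and sham, and hydrogel and sham for CK14 did not overlap. Leaving out 1 value could therefore not end the calls of those pairs. AC-Tub in hydrogel minus sham passed under none of them. The call of PAS in hydrogel minus sham was kept by the exact rank-sum test (adjusted p = 0.045) but not by most alternatives. The difference was -5 by medians (adjusted p = 0.0524) and -4.67 with Holm adjustment (adjusted p = 0.11; exact permutation tests). When 1 value was left out it was -5.67 to -3.67, with no call in 8 of 12 such repeats (exact permutation tests). Thickness in hydrogel minus sham was 0.093 to 0.159 when 1 value was left out, and passed in 1 of 12 repeats. On log2 values the position of hydrogel became 109.0% for CK14, 93.9% for AC-Tub, 73.3% for thickness and 60.0% for the block without a title. Positions therefore depend on the scale used. The CK14 position was 130.3% to 139.5% when 1 value was left out. The ratio of the cilium assembly list by the median gene was 4.34, and that of the mucin list was 5.91 to 16.7 without 1 library. The cause of these changes was not tested, and each repeat that left out a value also had fewer values. Under the alternatives run, no result changed direction. PAS holds zeros, so log2 values were not run for it. No paired analysis was possible because the rows of the sheet carry no replicate number, and the RNA levels come from no test. With 6 values per group, the test between a pair of groups can give no unadjusted p under 0.00216.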

Other observations

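An AC-TUB block of another experiment in the same workbook has columns named TET/LA@PA-TA@C and NT, which the files do not explain. Its NT values also average 100, so it seems to be scaled in the same way. TET/LA@PA-TA@C stood at 84.6 ± 40.2 there, from 41.0 to 149.6, and NT at 100 ± 37.3, from 64.0 to 171 (SD, n = 6 each). Beside these, the AC-Tub values of the tracheal sections above were 83.5 ± 22.8 in hydrogel and 100 ± 20.7 in sham (SD, n = 6 each). The experiments were scaled separately and were not tested against each other.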
